A study of Mus musculus with 6 samples.

Results

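The unfolded protein response and the integrated stress response were described through 37 genes taken by name, of which 36 had a row in the count table of 24181 genes and were analysed. Ddit3 was not analysed here. The genes were set apart by role as 3 stress sensors, 4 transcription factors, 12 chaperones and folding enzymes of the endoplasmic reticulum (ER), 6 genes of ER-associated degradation (ERAD) and 11 targets and feedback genes of the transcription factor ATF4. Expression was measured by 3'-end RNA sequencing in MC38, a mouse colon adenocarcinoma line grown in standard DMEM medium, with 3 samples each of parental cells (genotype WT) and of cells expressing STING-N153S. STING-N153S carries an amino acid substitution in STING, an ER protein of cytosolic DNA sensing, and the series was made to compare such cells with parental ones. The count columns used here are those of the 3 parental libraries, while samples expressing STING-N153S were not analysed here. No difference between the groups is therefore given. The deposited annotation lists the parental libraries as biological replicates BR1 to BR3 and does not say whether each came from its own culture. The p-values compare the spread between these libraries with counting error only.

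The parental libraries held 3358908, 4020023 and 3210024 counts. Levels are counts scaled to the library total (CPM), with the mean ± SD of the 3 libraries. Counting at the 3' end reads each transcript near its poly(A) tail whatever its length, so CPM was not divided by length. How fully each 3' end was captured and assigned to its gene was not measured, so ratios between genes are ratios of counts. Library 3 (replicate 3) stood apart from the others: of the 311 genes that varied between the libraries, it was the farthest from equal expression in 197. Sting1 itself was counted at 12.3 ± 2.04 CPM (SD, n = 3). Of 10 markers of intestinal epithelium listed, 4 were analysed, of which Krt8, Krt19 and Vil1 had 1 count each over the 3 libraries and Lgr5 had 0. The 4 epithelial markers analysed were thus at or near 0 in cells labelled as an adenocarcinoma, and the rest of the 10 were not analysed. The 7 mesenchymal and fibroblast markers were mixed in level, with Vim at 3058, Sparc at 545, Col3a1 at 115, Dcn at 52.1, Pdgfra at 12.8, Col1a1 at 3.58 and Pdgfrb at 0.667 CPM (means of 3 libraries). Vim varied between the libraries, with 2907, 3014 and 3251 CPM. The leukocyte markers analysed, Cd68 and Ptprc, had 10 counts and 1 count, and the endothelial markers Esam, Pecam1 and Cdh5 had 4, 2 and 1.

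The unfolded protein response starts at sensors in the ER membrane. IRE1 (encoded by Ern1) splices the mRNA of the transcription factor XBP1, ATF6 is cut to release a transcription factor, and PERK (Eif2ak3) phosphorylates the initiation factor eIF2, which lowers general translation and favours that of ATF4. ATF6 and XBP1 raise chaperones and ERAD genes, and ATF4, which also answers to amino acid shortage, raises genes of amino acid supply and one-carbon metabolism. Secretory and rapidly growing cells run this system at a basal level.

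Promoters of some of these genes hold the short elements through which the arms are known to act, and the matches are printed here. The genes were taken by name and grouped by their known role in these arms. Matches that differ between the ER genes and the ATF4 targets are therefore no independent evidence for the grouping. RefSeq promoters of GRCm38.p6, from 250 bases before to 50 bases after the start, were found for 32 of the 36 genes. The 32851 promoters read belong to 27025 genes, and a gene was counted if any of its promoters matched. Shares of all promoters are per promoter, and the other shares are per gene. The ER stress response element (ERSE, on either strand), which is CCAAT and CCACG with any 9 bases between them, was present in 6 of 15 ER folding and ERAD genes and in 0 of 11 ATF4 targets, 0 of 4 transcription factors and 0 of 2 sensors. Over all 32851 promoters of the table it was present in 0.119%, and among the genes with a mean of at least 1 CPM in 0.163%. The sequences run 5′ to 3′ on the strand of the gene, with the fixed letters of the element in capitals and 5 flanking bases on each side.
Hspa5: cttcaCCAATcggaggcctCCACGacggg
Hsp90b1, distal match: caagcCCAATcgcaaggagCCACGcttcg
Hsp90b1, proximal match: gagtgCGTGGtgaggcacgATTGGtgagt
Pdia6: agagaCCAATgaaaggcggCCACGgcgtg
Dnajc3: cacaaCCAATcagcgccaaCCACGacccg
Creld2: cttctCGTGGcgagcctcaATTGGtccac
Syvn1: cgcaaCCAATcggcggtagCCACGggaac
The printed runs lie at chr2:34772020-34772048 on the plus strand (Hspa5), chr10:86705633-86705661 and chr10:86705528-86705556 on the minus strand (Hsp90b1), chr12:17266486-17266514 (Pdia6), chr14:118937822-118937850 (Dnajc3), chr15:88819515-88819543 (Creld2) and chr19:6046527-6046555 (Syvn1), the last 4 on the plus strand. In Creld2 and at the proximal match of Hsp90b1 the element runs on the opposite strand to the gene and is therefore printed as its complement. With 1 mismatch allowed in the fixed letters, the element was present in 10 of the 15 ER genes, in 0 of 11 ATF4 targets and in 1.5% of all promoters, which adds Pdia4, Herpud1, Sel1l and Derl2.

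A related element, ERSE-II (on either strand), which is ATTGG and CCACG with any 1 base between them and so shares the last letters of ERSE, was present in Herpud1 and Dnajb11, and in 0.0365% of all promoters. Together, ERSE or ERSE-II was found in 8 of 15 ER genes and in 0 of the other 17 genes.
Herpud1: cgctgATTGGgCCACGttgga
Dnajb11: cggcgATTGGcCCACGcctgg
These runs lie at chr8:94386372-94386392 and chr16:22857847-22857867, both on the plus strand. In Dnajb11 the element begins 8 bases after the start, and in Herpud1 52 bases before it.

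The C/EBP-ATF response element (TGATGNAA, on either strand), to which ATF4 binds with C/EBP partners, had the opposite distribution. It was present in 5 of 11 ATF4 targets, in 1 of 4 transcription factors (Atf3), in 1 of 15 ER genes (Herpud1) and in 3.97% of all promoters. Among the genes with a mean of at least 1 CPM it was present in 2.51%. In Slc7a11 it occurred as a pair of matches, 66 and 47 bases before the start, in opposite orientations.
Asns: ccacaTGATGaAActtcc
Chac1: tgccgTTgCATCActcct
Trib3: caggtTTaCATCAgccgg
Vldlr: aatagTTgCATCAgcgct
Slc7a11, distal match: gtggcTGATGcAAacctg
Slc7a11, proximal match: agaatTTgCATCAtcatg
Atf3: cgcacTTgCATCAccaag
Herpud1: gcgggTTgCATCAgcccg
The runs lie at chr6:7693220-7693237 (Asns, minus strand), chr2:119351044-119351061 (Chac1, plus), chr2:152344034-152344051 (Trib3, minus), chr19:27216815-27216832 (Vldlr, plus), chr3:50443667-50443684 and chr3:50443648-50443665 (Slc7a11, minus), chr1:191183431-191183448 (Atf3, minus) and chr8:94386312-94386329 (Herpud1, plus). Herpud1 was the one gene with matches of both kinds. The cAMP response element (TGACGTCA, on either strand) was found in Ppp1r15a. It was present in 1.79% of all promoters and in 3.79% of the genes with a mean of at least 1 CPM. The XBP1 element UPRE (TGACGTGG, on either strand) was found in 0 of the 32 genes. It was present in 0.676% of all promoters and in 1.05% of the genes of at least 1 CPM. These last elements share the letters TGACGT. A match is a string of letters and not a shown binding site, and a gene without a match lacks these letters in this window only.

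**Figure D1:**
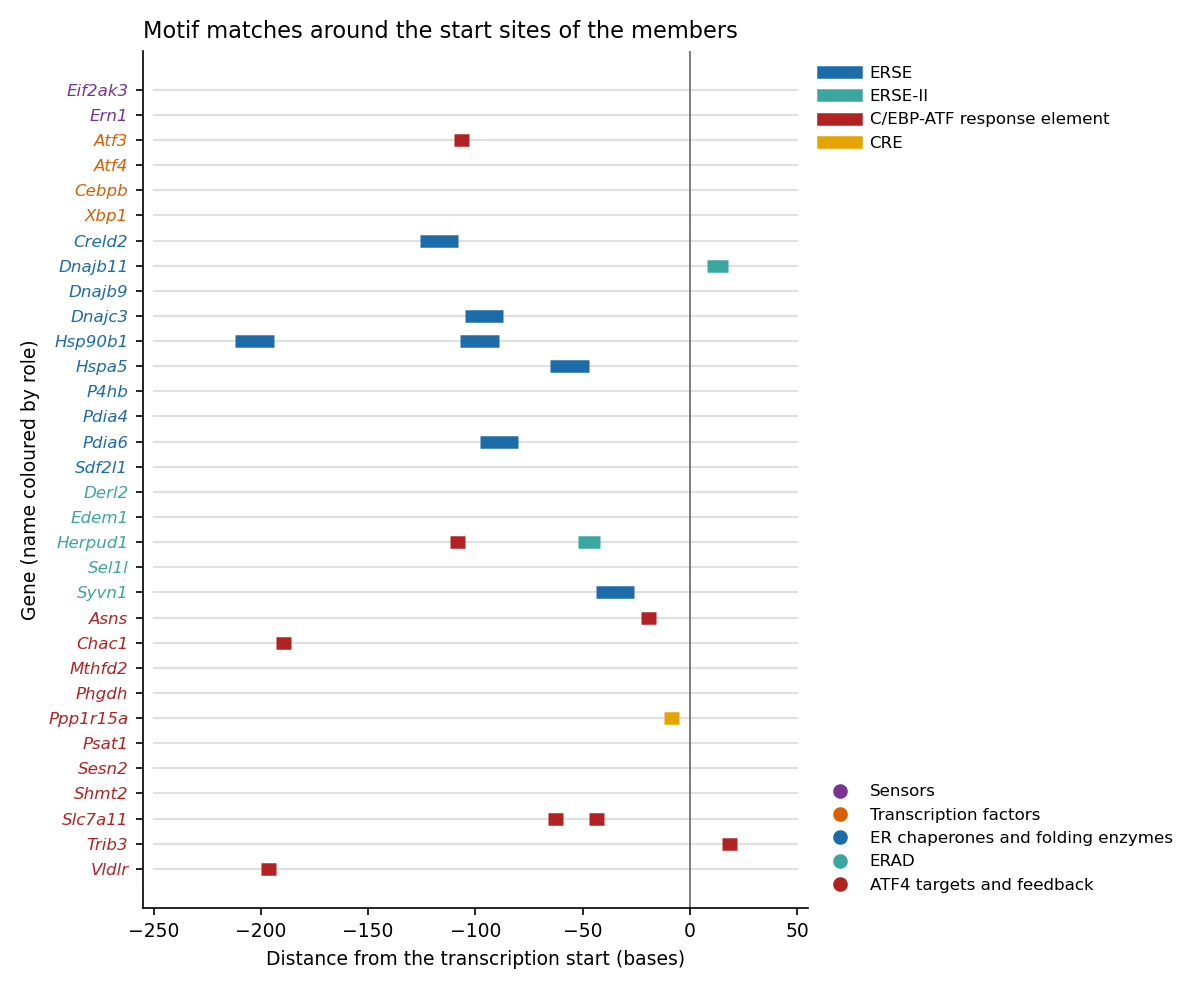
Positions of motif matches relative to the transcription start (bases) in the 32 genes with a RefSeq promoter, 1 line per gene, with gene names coloured by role. ERSE and ERSE-II lie on lines of ER folding and ERAD genes, and the C/EBP-ATF response element lies on those of 5 ATF4 targets, Atf3 and Herpud1.

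The ER-stress sensors were the lowest of the 5 role groups, with 17.9, 14.9 and 14.0 CPM summed over its 3 genes in replicates 1 to 3. Atf6, the sensor that becomes a transcription factor, had 14.9, 10.9 and 9.03 CPM. Ern1, the kinase and endonuclease IRE1, had 2.98, 1.74 and 3.12 CPM, which is 27 counts over the 3 libraries. Eif2ak3, the eIF2 kinase PERK, had 0, 9 and 6 counts, or 0, 2.24 and 1.87 CPM. The count of 0 in replicate 1 allows up to 0.893 CPM by counting error alone, and Eif2ak3 was too low for the test between libraries. The libraries of Atf6 lay above those of Ern1 without overlap, at a count ratio of 5, 6.29 and 2.90. In bulk RNA, transcripts present in few cells and low levels in each cell cannot be told apart.

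Among other genes of sensing taken as a list, all 23 analysed of 25 reached 1 CPM, where 49.5% of all genes did. They were led by the eIF2 subunits Eif2s2, at 1225 ± 22.2 CPM, and Eif2s1, the subunit that the stress kinases phosphorylate, at 470.9 ± 8.37 CPM (SD, n = 3). Rtcb, the ligase that joins the ends of spliced Xbp1 mRNA, followed at 196 ± 0.90 CPM (SD, n = 3). The other eIF2 kinases stood above Eif2ak3 in level: Eif2ak1, the haem-regulated kinase, at 54.8 ± 1.10 CPM, Eif2ak2 (PKR, which senses double-stranded RNA) at 24.9 ± 4.40 CPM and Eif2ak4 (GCN2, which senses uncharged tRNA) at 15.8 ± 1.62 CPM (SD, n = 3). The lowest library of each of these 3 kinases lay above the highest of Eif2ak3. Ppp1r15b, the constitutive partner of the eIF2 phosphatase, had 33.9 ± 1.07 CPM (SD, n = 3).

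The transcription factors were counted far above the sensors, except Atf3. Atf4 (chr15:80255184-80257545 on GRCm38.p6) had 191, 190 and 200.9 CPM and its mean of 194 ± 6.17 CPM (SD, n = 3) placed it at rank 1071 of all genes. Cebpb, a C/EBP family factor that dimerizes with ATF4 and is also induced by it, had 157, 176 and 188 CPM. Xbp1, whose spliced mRNA encodes the active factor, had 78.9, 81.1 and 87.5 CPM. Atf4 was above Xbp1 in every library, at a count ratio of 2.35 ± 0.06 (SD, n = 3). A 3'-end count does not tell spliced from unspliced Xbp1, nor the translation of Atf4. Atf3, a stress-induced repressor, had 2.08, 2.74 and 3.12 CPM, which overlaps the range of Ern1. All 4 factors were highest in replicate 3, which was the highest library in 34.8% of all genes tested.

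ER chaperones and folding enzymes made up most of the counts of the set. Their 12 genes summed to 5128, 5073 and 5170.05 CPM in replicates 1 to 3, or 5124 ± 48.6 CPM (SD, n = 3), which is 0.512% of all counts. Of these genes, 9 averaged 100 CPM or more, where 8.54% of all genes of the table did, and 11 averaged 10 CPM or more, where 31.2% did. Hspa5 encodes BiP, the HSP70 of the ER that also holds the sensors inactive. It lies at chr2:34772090-34776529, had 1487, 1439 and 1453 CPM and ranked 81 among all genes. Hsp90b1 (GRP94, the HSP90 of the ER, at chr10:86690841-86705444) had 1246, 1237 and 1329 CPM and ranked 100. Both genes together took 53.3, 52.7 and 53.8% of the counts of the group in replicates 1 to 3.

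Of the 3 disulfide isomerases in the set, P4hb (PDI) was the highest, with 660, 653 and 654 CPM. Pdia6 had 603, 613 and 563 CPM, so that replicate 3 was the lowest library, and Pdia4 had 170.0, 177 and 175 CPM. The count ratio of P4hb to Pdia6 was 1.11 ± 0.05 and that of P4hb to Pdia4 was 3.77 ± 0.10 (SD, n = 3). Manf, a secreted ER stress factor that binds BiP, stood at 368, 367 and 381 CPM, and Creld2, which is secreted after ER stress, at 163, 170 and 175 CPM.

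The partners of BiP differed widely in level. Dnajb11 (ERdj3), an ER J-domain co-chaperone, had 194, 190 and 196 CPM. Dnajc3 (p58IPK), another ER J-domain co-chaperone, had 144, 146 and 160 CPM. Dnajb9 (ERdj4), which brings BiP to IRE1, had 10.1, 7.46 and 8.10 CPM. The count of Dnajb11 was 22.9 ± 3.30 times that of Dnajb9 (SD, n = 3), with libraries of 19.2, 25.4 and 24.2. Sdf2l1, a partner of Dnajb11, had 61.9, 56.2 and 56.1 CPM. Hyou1 (GRP170), a nucleotide exchange factor of BiP, had 19.9, 18.2 and 20.9 CPM, and the count of Hspa5 exceeded it by 74.5 ± 4.82 times (SD, n = 3). The exact 95% interval (Clopper-Pearson) of the Hspa5 to Hyou1 ratio over the pooled counts ran from 65.05 to 86.0, which covers counting error only.

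The 6 ERAD genes summed to 286, 298 and 283 CPM in replicates 1 to 3. All 6 averaged 10 CPM or more, where 31.2% of all genes did, and none averaged 100 CPM or more, where 8.54% did. The Derlins, membrane proteins of the retrotranslocation channel, led the group. Derl2 had 91.7, 92.5 and 86.9 CPM and Derl1 67.9, 73.6 and 70.4 CPM, at a count ratio of 1.28 ± 0.06 (SD, n = 3). Together they took 55.7 ± 0.04% of the counts of the group (SD, n = 3). Herpud1, a scaffold of the ERAD complex, had 50.02, 55.7 and 54.5 CPM, and Edem1, a mannosidase-like protein that marks glycoproteins for disposal, 43.5, 40.8 and 40.5 CPM.

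The ubiquitin ligase HRD1 (Syvn1) and its adaptor Sel1l were the lowest of the 6. Syvn1 had 19.4, 23.6 and 20.2 CPM, and Sel1l 14.0, 11.7 and 9.97 CPM. Their libraries did not overlap, and the count ratio of Syvn1 to Sel1l was 1.38, 2.02 and 2.03. These ratios rest on 32 to 95 counts per gene and library, and the exact 95% interval of the pooled ratio ran from 1.43 to 2.24. The last 500 bases of Syvn1 hold an exon of Mrpl49 on the opposite strand, which was counted at 164 CPM. The sources used here do not say whether the authors' counting used strand, so the value of Syvn1 is uncertain. The same kind of overlap with an opposite gene was found at the ends of Manf (Dcaf1, 17.1 CPM), Shmt2 (Ndufa4l2, 0.577 CPM), Pdia6 (Atp6v1c2, 0.104 CPM) and Ppp1r15a (Tulp2, 0 CPM), and the other 31 genes had none in the GENCODE M21 annotation.

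**Figure D2:**
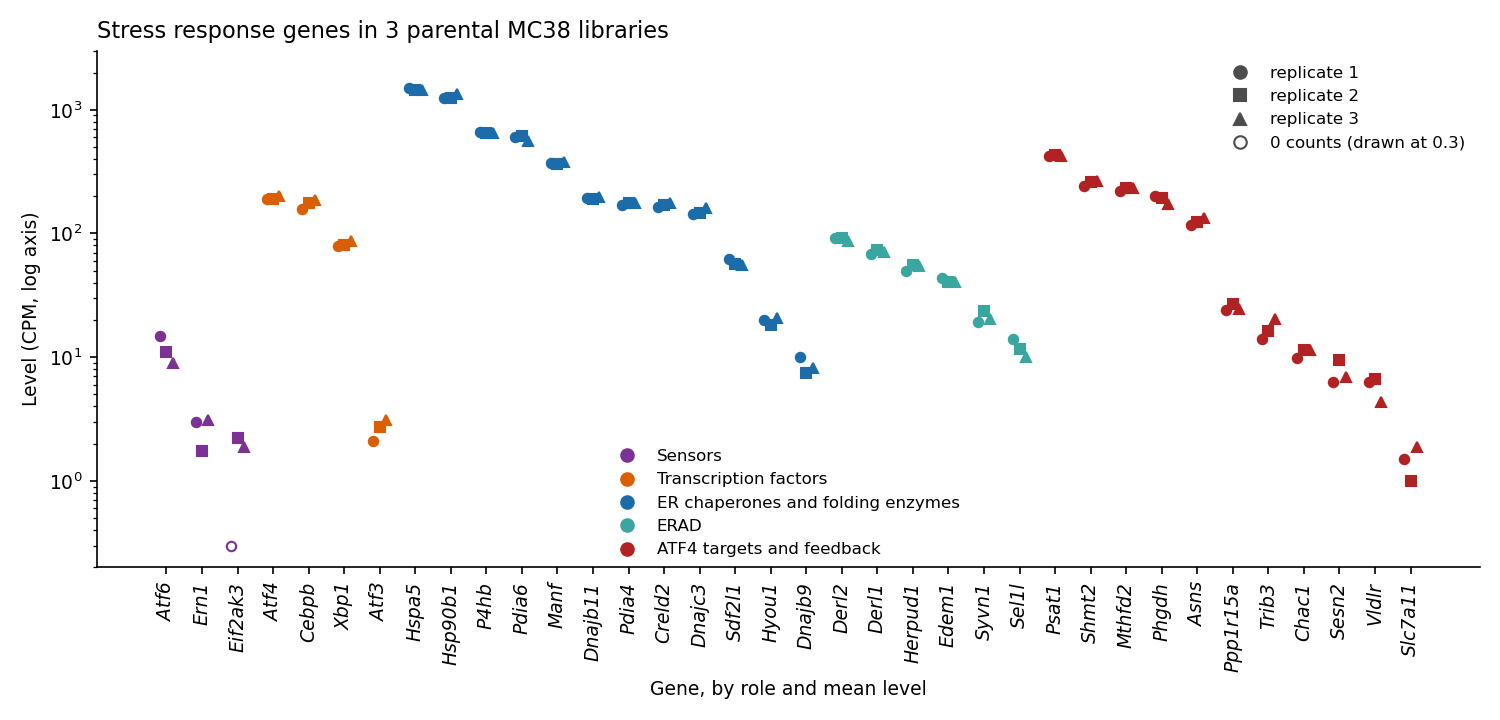
Level (CPM, log axis) of each of the 36 genes in the 3 parental libraries (symbols), ordered by role and mean. The means of ER chaperones run from 8.56 to 1460 CPM and those of ERAD genes from 11.9 to 90.4 CPM, and the open symbol marks the 0 counts of Eif2ak3 in replicate 1.

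The ATF4 targets were split between abundant metabolic enzymes and lower genes of mixed function. The 11 genes summed to 1266, 1317 and 1299 CPM in replicates 1 to 3, of which the serine and one-carbon enzymes Psat1, Phgdh, Shmt2 and Mthfd2 took 85.8, 85.1 and 84.4%. Psat1 (chr19:15905123-15925059), the aminotransferase of serine synthesis, had 421, 429.8 and 426 CPM. Phgdh, which catalyses the first step of that pathway, had 201, 193 and 174 CPM, so that the count of Psat1 was 2.25 ± 0.17 times that of Phgdh (SD, n = 3). In mitochondrial folate metabolism, Shmt2 had 244, 263 and 263 CPM. Mthfd2, the next enzyme of the same route, had 220.3, 235 and 233 CPM, and the count ratio of Shmt2 to Mthfd2 was between 1.11 and 1.13 in every library. Asns, the asparagine synthetase, had 118, 125 and 133 CPM.

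The other 6 genes of the group were all below these enzymes. Ppp1r15a (GADD34), the inducible partner of the eIF2 phosphatase, had 24.1, 26.9 and 24.3 CPM. Trib3, a pseudokinase that restrains ATF4, had 14.0, 16.2 and 20.2 CPM. Chac1, which degrades glutathione, had 9.82, 11.4 and 11.5 CPM. Asns was thus counted above Trib3 in every library, at a ratio of 7.57 ± 0.93 (SD, n = 3). Sesn2, an inhibitor of mTORC1 signalling, had 6.25, 9.45 and 6.85 CPM, and Vldlr, a lipoprotein receptor, 6.25, 6.72 and 4.36 CPM. Slc7a11, the cystine transporter, was the lowest, with 5, 4 and 6 counts or 1.49, 0.995 and 1.87 CPM. The 5 targets whose promoters hold the C/EBP-ATF response element were therefore Asns and 4 of these 6 lower genes, and no match was found in the 4 serine and one-carbon enzymes.

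Other ATF4 targets were taken as a list of 24 genes, all of which were analysed. Of these, 21 averaged 1 CPM or more, where 49.5% of all genes did, and 16 averaged 10 CPM or more, where 31.2% did. Eif4ebp1, a translation repressor, led with 558 ± 5.11 CPM, followed by Slc3a2, the heavy chain of amino acid exchangers, with 517 ± 21.9 CPM and Bcat1, a branched-chain aminotransferase, with 114 ± 10.3 CPM (SD, n = 3). The secreted stress factors Gdf15 and Fgf21 had 2 and 6 counts over the 3 libraries, and the transporter Slc7a3 had 3.

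Set side by side within a library, the 18 ER folding and ERAD genes summed to 4.28, 4.08 and 4.2 times the ATF4 targets, 4.18 ± 0.10 on average (SD, n = 3). ER chaperones exceeded ERAD genes by 17.7 ± 0.65 times (SD, n = 3). The median gene stood at 184 ± 1.76 CPM among ER chaperones, at 47.5 ± 0.76 CPM among ERAD genes and at 25.1 ± 1.54 CPM among ATF4 targets (SD, n = 3). The groups hold unequal numbers of genes, so the sums and the medians describe these lists only.

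**Figure D3:**
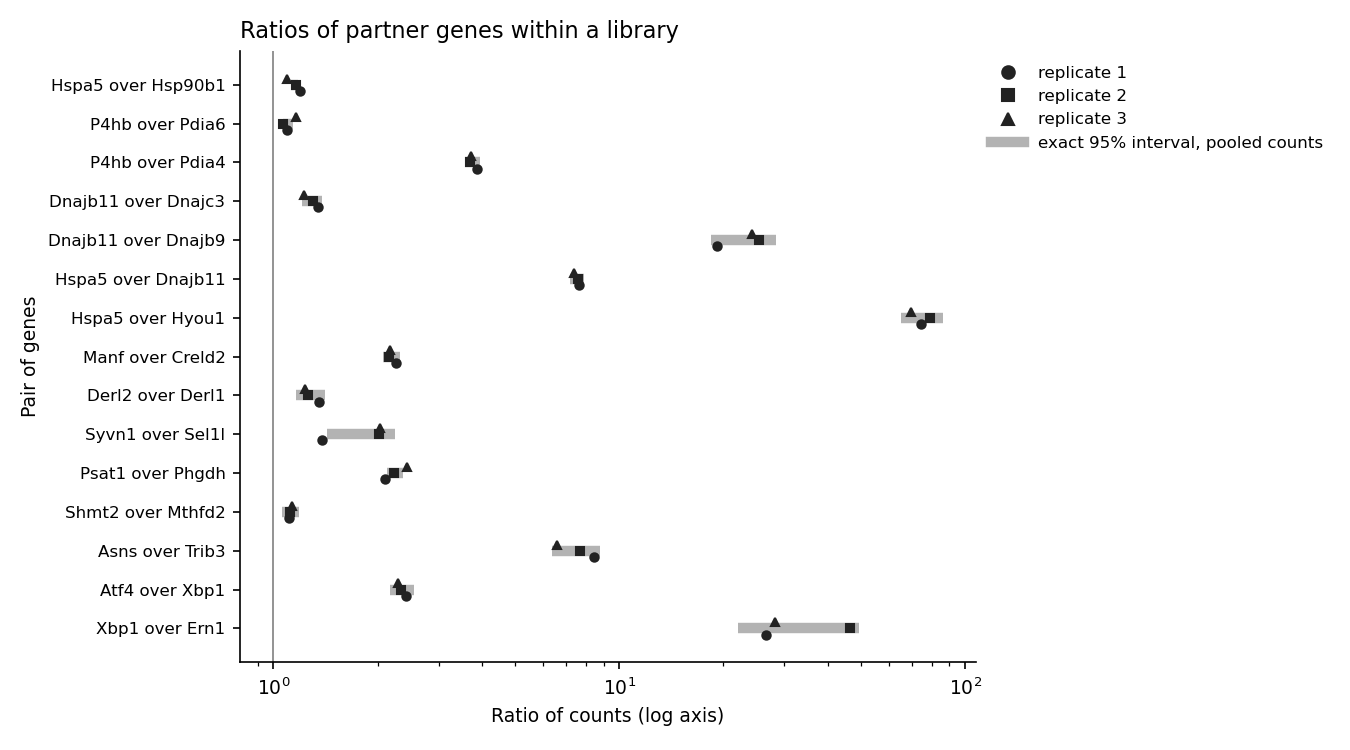
Ratio of counts (log axis) of 15 pairs of partner genes within each parental library (symbols), with the exact 95% interval of the pooled ratio (grey bar). The ratio of Shmt2 to Mthfd2 is between 1.11 and 1.13 in every library, and that of Hspa5 to Hyou1 between 69.6 and 79.2.

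In the order of mean levels over all 36 genes, the first 8 pairs of neighbours, from Hspa5 through Hsp90b1, P4hb, Pdia6, Psat1, Manf, Shmt2 and Mthfd2 to Atf4, had libraries that did not overlap. The next genes, Atf4, Dnajb11, Phgdh, Pdia4, Cebpb and Creld2, each overlapped with the next, although not all with one another: the libraries of Atf4 and Dnajb11 lay above those of Pdia4, Cebpb and Creld2. From Syvn1 down to Vldlr, every gene again overlapped with the next, through Hyou1, Trib3, Sel1l, Atf6, Chac1, Dnajb9 and Sesn2. In all, 17 of 35 pairs of neighbours overlapped. All 36 genes reached a mean of 1 CPM, which 49.5% of all genes did, and 35 did so without replicate 2, where Eif2ak3 stood at 0.935 CPM. Of the set, 29 reached 10 CPM, where 31.2% of all genes did, and 8 were among the 1000 highest genes. Eif2ak3, at rank 11371, and Slc7a11, at rank 11258, were the lowest, with 15 counts each.

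**Figure D4:**
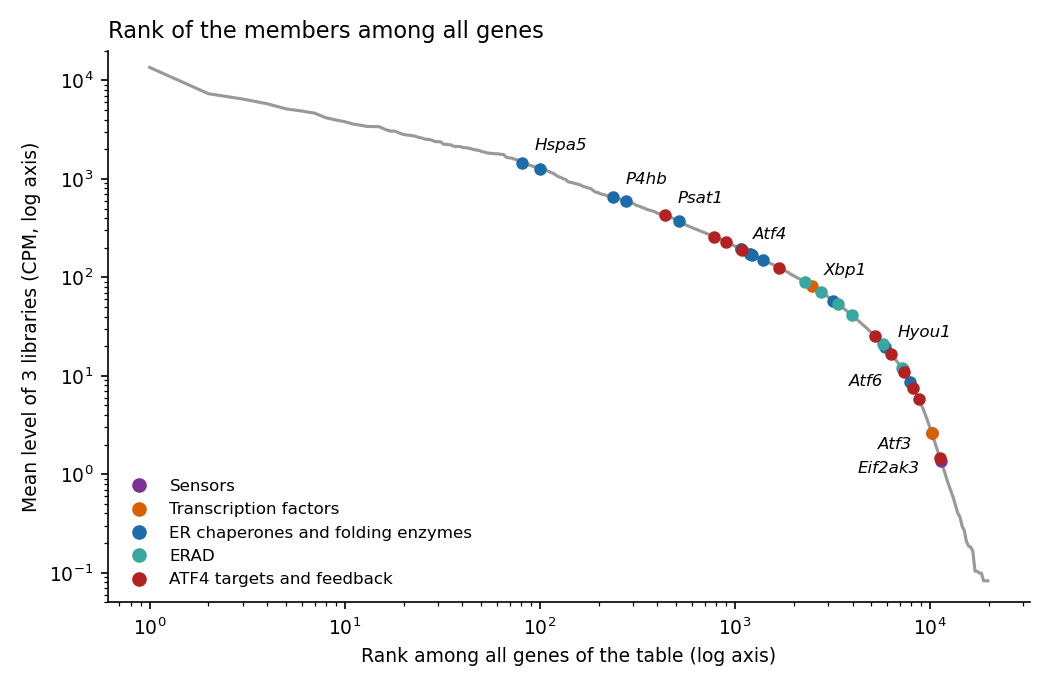
Mean level over 3 parental libraries (CPM, log axis) against rank among the 24181 genes of the table (log axis), with all genes as a grey line and the 36 genes as points coloured by role. Hspa5 is at rank 81, Atf4 at rank 1071 and Eif2ak3 at rank 11371.

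Variation between the parental libraries, which compares libraries and not conditions, was then examined with a chi-square test on the counts of each gene, over all genes, with Benjamini-Hochberg adjustment at 0.05. Of 34 stress response genes tested, 1 varied (2.94%), where 2.80% of all 11118 genes tested did. The shares were about equal, though not matched for level. That gene was Hsp90b1, whose level was higher in replicate 3, at 1329 CPM, than in the others, at 1246 and 1237 CPM (adjusted p = 0.0263 by the chi-square test). The call was lost with TMM scaling (adjusted p = 0.0633), without replicate 2 (0.101) and without replicate 3 (0.584). Cebpb (adjusted p = 0.214), Pdia6 (0.242) and Phgdh (0.319) passed an unadjusted 0.05 only. With Hsp90b1 these were 4 of 34 genes (11.8%), beside 13.2% of all genes tested.

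For 22 of the 34 genes tested (64.7%) the SD between libraries was below the SD that counting alone would give, and so it was for 52.4% of all genes tested. An SD of so few libraries falls below the true SD more often than above it. The share therefore does not show that these genes vary less than counting alone would give. The SD was more than 2 times the counting value in Hsp90b1 (2.68 times), Cebpb (2.19) and Pdia6 (2.06). The share of all genes above that value was not computed. Among genes of at least 1000 counts over the libraries, the median coefficient of variation was 3.49% for the 16 stress response genes and 4.26% for all 2185 genes. Above that limit the genes were not matched for level, so these medians do not show that the stress response genes vary less. Replicate 1 was the lowest library in 8 of the 11 ATF4 targets, in 18 of all 36 genes of the set and in 36.5% of all genes tested. Of the 11 targets, Slc7a11 was not tested and was lowest in replicate 2. The 10 that were tested did not vary by the test.

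**Figure D5:**
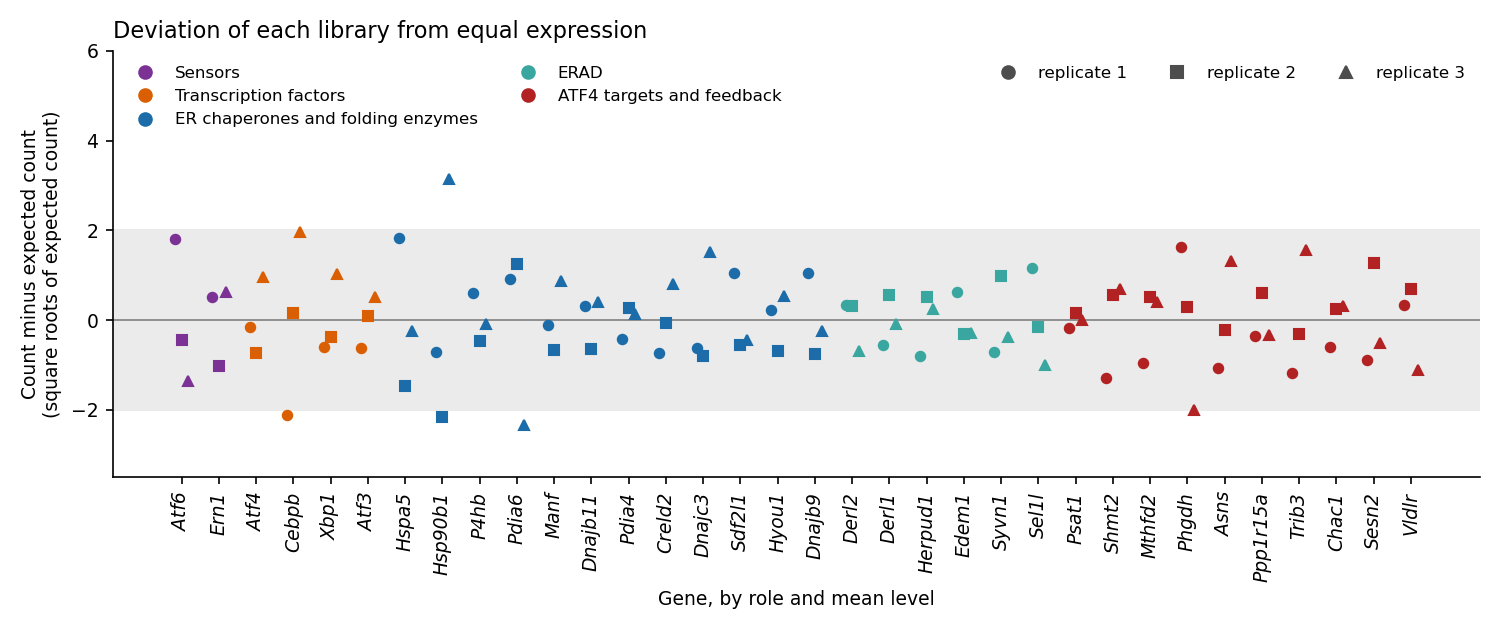
Count minus the count expected under equal expression, in square roots of the expected count, for the 34 genes tested in 3 parental libraries (symbols), with the span from -2 to 2 shaded. Hsp90b1 in replicate 3 lies above the shaded span, and Hsp90b1 in replicate 2, Pdia6 in replicate 3 and Cebpb in replicate 1 lie below it.

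Other genes of ER folding were as a rule abundant too. Of 28 other ER folding genes listed, 26 were analysed. Of these, 25 averaged 10 CPM or more, where 31.2% of all genes did. The lectin-associated isomerase Pdia3 led with 905 ± 14.1 CPM, followed by the lectin chaperone Canx with 688 ± 32.1 CPM and the prolyl isomerase Fkbp2 with 688 ± 49.5 CPM (SD, n = 3). Of 25 tested, 4 varied between the libraries, beside 2.80% of all genes tested. Fkbp2 had 638, 689 and 737 CPM, Calr, a lectin chaperone, 674, 586 and 689 CPM, and Canx 725, 664 and 676 CPM. Hspa13, an HSP70-like protein of the ER, had 57.5, 53.7 and 24.6 CPM, so that replicate 3 held less than either other library.

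Of 20 other ERAD genes listed, 19 were analysed. Of these, 17 averaged 10 CPM or more, where 31.2% of all genes did. Aup1, which recruits a ubiquitin-conjugating enzyme to the ER, led with 242 ± 18.04 CPM, followed by Ubxn4, an ER adaptor of p97, with 227 ± 25.2 CPM and Vcp, which encodes p97, with 175 ± 3.60 CPM (SD, n = 3). Of 19 tested, 1 varied, beside 2.80% of all genes tested, which were not matched for level. It was Ubxn4, with 205, 222 and 255 CPM.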

How the data were processed

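Total RNA of MC38 cells was primed with barcoded oligo-dT and sequenced at the 3' end, per the labels' protocols. Per the file headers, the authors deposited raw counts of each gene, from untrimmed reads aligned to GRCm38 (GENCODE M25 annotation) by STAR 2.7.5b; Picard 2.18.26 and Drop-seq tools 1.12 were also used. Neither the collapse of molecular identifiers nor the handling of multi-mapping reads is described in the sources at hand. Intervals cover counting error only.

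Columns named WT in the deposited annotation, 3 in all, stand for the parental samples with the same genotype and replicate number. The other 6 columns were not tied by name to single samples and were not used, so the planned edgeR comparison of STING-N153S with parental cells was not run.

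Members and lists were chosen with earlier results of these data known. All 36 members are named with values; of each other list, the 3 highest and those that varied are named, and other genes were named after their values were seen, as were the gene pairs. Expected counts followed median-ratio scaling, and genes with at least 5 expected counts in each library were tested, after a check on simulated data. The floor is 3 counts. Positions of genes overlapping 3' ends are from GENCODE M21. TMM came from edgeR 4.0.16 and size factors from DESeq2 1.42.0 in R 4.3.3; the rest used Python 3.11.15, scipy 1.17.1 and statsmodels 0.14.6. A planned reading of protein C termini was not run.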

Additional observations from a re-analysis of the deposited data

How the results depend on the processing

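The number of stress response genes that varied between the parental libraries, 1, was 0 with TMM scaling and ran from 0 to 1 when 1 library was left out; the cause was not tested. Over all genes the number that varied, 311, was 289 with TMM scaling, 213 without replicate 1, 274 without replicate 2 and 61 without replicate 3. It stayed at 1 with library totals and with minimum expected counts of 1 and 20. Totals without the 20 highest genes raise every CPM by construction: sums became 499 CPM for the transcription factors, 5643 CPM for ER chaperones, 318 CPM for ERAD genes and 1425 CPM for ATF4 targets. That setting moved 25 of 36 single genes by more than 1 SD, and TMM and DESeq2 size factors moved 0. Without 1 library, 0 of 108 single values moved by 1 SD, which is so by construction for 3 values. The number of genes at 10 CPM or more, 29, was 32 at 5 CPM, 24 at 20 CPM and 28 to 29 without 1 library. The promoter alternatives were chosen after seeing the data. ERSE with 1 mismatch was found in 10 ER genes against 6. The C/EBP-ATF response element was found in 4 ATF4 targets when only the 250 bases before the start were read, since the match in Trib3 lies after it. No paired analysis was possible because samples of a single group were analysed. The alternatives planned for STING-N153S were not run. A count of 0 allows 0.746 to 0.935 CPM per library, and Eif2ak3 and Slc7a11 had too few counts for the test.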
